A study of Mus musculus with 19 samples.

Results

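The mitochondrial ribosomal protein genes, taken as every gene whose symbol begins with Mrpl or Mrps followed by a digit, were examined in dendrites severed from cultured mouse hippocampal neurons. The rule found 76 of the 18193 genes with a value on the array, 47 named Mrpl for proteins of the large ribosomal subunit and 29 named Mrps for the small subunit. Each gene value was the median, on a log2 scale, of the probe sets (groups of short probes to a transcript) that carry that symbol alone. The 76 genes had 156 such probe sets, 34 genes having 1 and 42 having several, up to 8 for Mrpl15. Probe sets shared with another gene were left out, so Mrpl30 and Mrpl53 had no value of their own.

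Mitochondria keep a small genome, and the few proteins it encodes, all subunits of the respiratory chain and the ATP synthase, are made inside the organelle by its own ribosome. The proteins of that ribosome are encoded in the nucleus, translated in the cytosol and imported. Many descend from the proteins of a bacterial ribosome, and others were added in the mitochondrial lineage and have no bacterial counterpart. Dendrites are rich in mitochondria, which supply ATP and buffer calcium near synapses, and mRNAs for mitochondrial proteins are among those known to be carried into neuronal processes.

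The study compared strains and pool sizes without any treatment. There were 5 Balb/c arrays, 2 of pools of 100 dendrites, 1 of a pool of 200 and 2 of pools of 400, and 14 C57BL/6 arrays, with 4, 5 and 5 pools of 100, 200 and 400 dendrites. All neurons came from embryos at day 18 of gestation, were grown for 14 days in dispersed primary culture and are labelled as pyramidal neurons. Dendrites of several cells were cut free with a glass pipette and pooled, axons could not be told from dendrites by shape, and the RNA was amplified in successive rounds before labelling. The array was designed on C57BL/6 sequence. Arrays are called by strain, pool size and replicate number, and the labels call them biological replicates.

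Some arrays stood apart from their strain before any gene was considered. Balb/c 200-1 had mean correlations of 0.68 with the other Balb/c arrays and 0.78 with C57BL/6, C57BL/6 200-1 had 0.78 with Balb/c and 0.76 with the rest of C57BL/6, and C57BL/6 400-1 had 0.72 and 0.78. These 3 are called the arrays between the strains. Balb/c 400-2, at 0.77 with Balb/c and 0.72 with C57BL/6, was about as close to both as C57BL/6 400-1, and was left out with them in a further setting chosen after seeing the data. The closest array to Balb/c 200-1 was C57BL/6 400-1, and the reverse held too (correlation 0.929). Likewise C57BL/6 200-1 and Balb/c 400-2 were each closest to the other (0.891), so the nearest array of these 4 was of the other strain. Balb/c 100-2 and 400-1 held the fewest distinct values of all 19 arrays. All 5 Balb/c arrays and 4 C57BL/6 arrays (100-1, 100-2, 200-1 and 400-1) were written with up to 14 decimals. The other 10 C57BL/6 arrays had up to 9, so that format and strain overlap in part. The signal of Actb probes near the 3' end minus that of probes near the 5' end, which widens as transcripts are shortened, was between -0.69 and 2.27 on the Balb/c arrays, 1.17 and 1.65 on C57BL/6 200-1 and 400-1, and between 3.27 and 5.56 on the other C57BL/6 arrays. The same measure for Gapdh overlapped, between 1.48 and 4.72 on Balb/c arrays and between 2.39 and 5.00 on C57BL/6 arrays. Of the pyramidal markers, Nrgn was above the background level defined below on all 19 arrays, Crym on 8, Neurod6 on 5, and Camk2a, Slc17a7, Map2 and Grin2b on 0. Neurod6 averaged 6.97 ± 2.32 in Balb/c and 9.20 ± 1.06 in C57BL/6, and Crym 5.503 ± 1.597 and 9.49 ± 1.25 (SD, n = 5 and 14). Map2 averaged 6.717 in Balb/c and 7.949 in C57BL/6. Camk2a, at 7.646 and 6.955, and Slc17a7, at 6.741 and 6.363, ran the other way. So did Nrgn, at 13.318 and 13.032, and Grin2b, at 6.695 and 6.395.

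Most of the 76 genes gave signal in the middle of the array's range. The 39 olfactory receptor genes, which neurons of this kind are not expected to use, served as a gauge of signal without transcript. Between 2 and 6 of the 76 genes exceeded the 95th percentile of the olfactory receptors on each Balb/c array, and between 3 and 15 did so on each C57BL/6 array. That percentile is a strict cut, between 9.16 on C57BL/6 400-5 and 11.00 on Balb/c 100-1, and a gene below it may still be present. The share of all genes above it was not counted. The gauge itself moved with strain, since the olfactory receptor median was between 6.997 and 7.37 on Balb/c arrays, 7.13 and 6.997 on C57BL/6 200-1 and 400-1, and between 5.98 and 6.45 on the other 12 C57BL/6 arrays. The median of the 76 genes was below it on 4 of 5 Balb/c arrays (6.70 against 7.13 on 100-2, for example) and above it on all 14 C57BL/6 arrays. Only Mrpl57, Mrps27 and Mrps36 exceeded the 95th percentile of the olfactory receptors on more than 9 of the 19 arrays. The rank of the median gene of the 76 among all genes lay between the percentiles 41.8 and 61.0 on Balb/c arrays and between 59.0 and 74.6 on C57BL/6 arrays. Low values are therefore close to background and limit what can be seen there, and values of different probe sets are not compared as amounts of transcript.

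The mean over the 76 genes was lower in every Balb/c array but 1 than in every C57BL/6 array. It was 7.23, 6.96, 7.46, 6.95 and 7.03 in Balb/c 100-1, 100-2, 200-1, 400-1 and 400-2, against 7.35 as the lowest, 7.75 as the median and 8.03 as the highest of the 14 C57BL/6 arrays. The averages were 7.13 ± 0.22 in Balb/c and 7.72 ± 0.17 in C57BL/6 (SD, n = 5 and 14). The exception was Balb/c 200-1, and the C57BL/6 arrays nearest to Balb/c were 200-1 at 7.35 and 400-1 at 7.52. The typical gene ran the other way, since the median of the strain difference over all 18193 genes was 0.22, higher in Balb/c. Strain differences below are Balb/c minus C57BL/6 in log2 units relative to that median gene, and a gene is called lower or higher in Balb/c by limma's test of the values as deposited, with p-values adjusted over all genes (Benjamini-Hochberg, threshold 0.05).

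**Figure D1:**
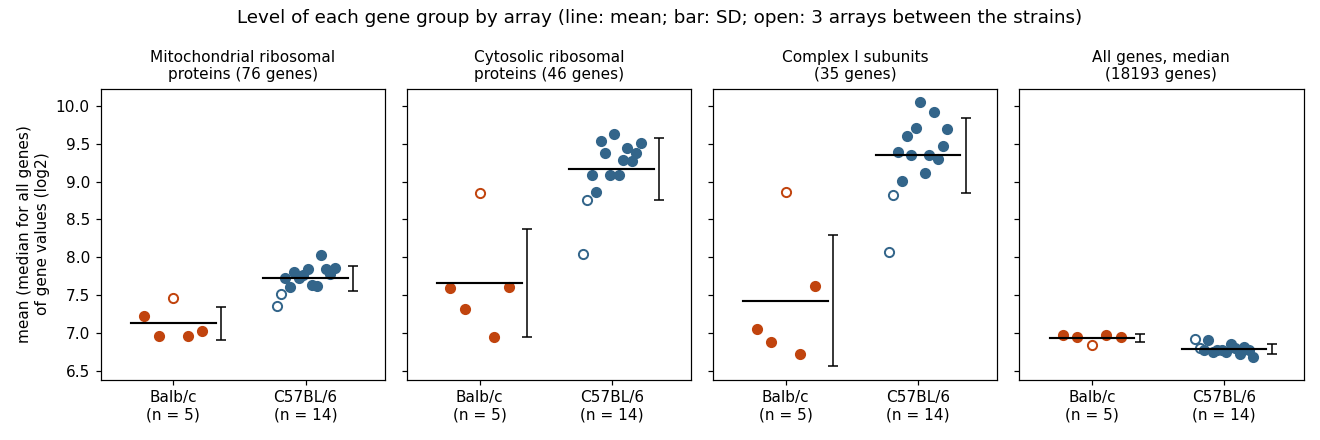
Level of each gene group on each array (log2), as the mean of its gene values or, for all genes, their median; points are arrays, Balb/c left and C57BL/6 right, lines are means, bars are SD, and open points mark Balb/c 200-1, C57BL/6 200-1 and C57BL/6 400-1. The mitochondrial ribosomal protein genes averaged 7.13 in Balb/c and 7.72 in C57BL/6, a narrower gap than for the cytosolic ribosomal proteins or complex I subunits.

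In Balb/c dendrites 29 of the 76 genes were lower than in C57BL/6 and 3 were higher, while 44 did not pass the test. Of all genes tested, 11.4% were lower and 21.1% higher in Balb/c, so the 38.2% of the members called lower stands beside a background that leaned the other way. The median relative difference over all 76 genes was -0.90, and 61 of them lay below the median gene. Fewer RNA molecules in a dendrite and less dendrite in a pool cannot be told apart in such bulk samples. By limma's test 4 members, all lower, had an adjusted p under 0.001, beside 2.35% of all genes lower and 1.5% higher. The study's methods used that threshold with another test, by which 1 member passed it. The share of all genes passing it by that test was not counted. Leaving out arrays picked by their correlations over all genes widens strain differences in general, so the next counts are no independent check. With Balb/c 200-1, C57BL/6 200-1 and C57BL/6 400-1 left out, 36 members were lower (15.3% of all genes) and 6 higher (28.2% of all genes), and the 36 included all 29. With Balb/c 400-2 left out as well, 29 were lower (14.9% of all genes), 26 of them among the first 29, and 6 higher (26.4%), with a median of -0.95.

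**Figure D2:**
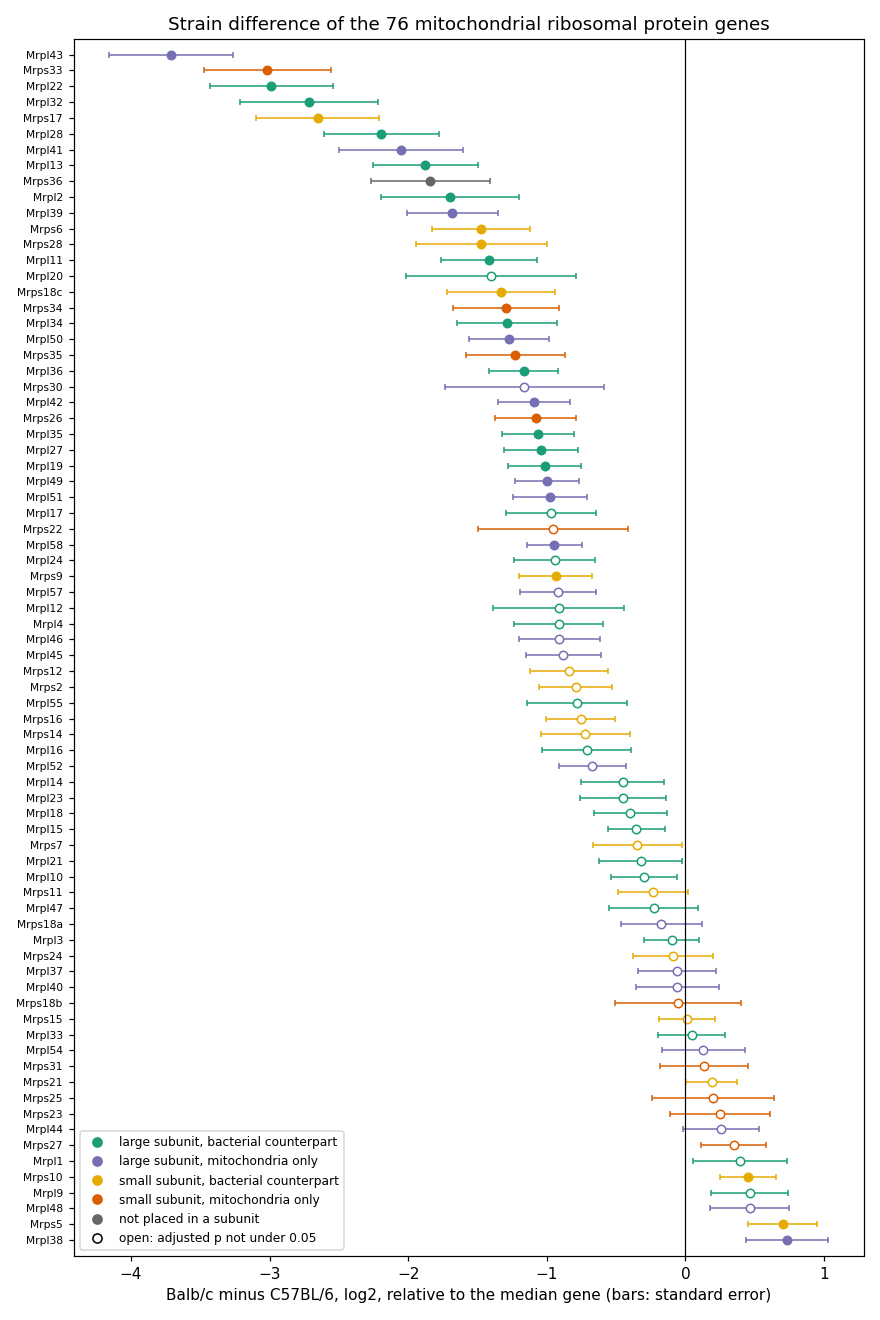
Strain difference of each of the 76 genes (Balb/c minus C57BL/6, log2, relative to the median gene, with standard error), ranked and coloured by subunit and by whether a bacterial counterpart exists; filled points had an adjusted p under 0.05. The differences ran between -3.71 for Mrpl43 and 0.73 for Mrpl38, and 61 of 76 lay below 0.

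The largest difference was that of Mrpl43, a protein of the large subunit found only in mitochondrial ribosomes. It had 4.21, 5.83, 7.20, 5.96 and 5.92 in Balb/c 100-1, 100-2, 200-1, 400-1 and 400-2, against 7.31, 9.51 and 10.83 as the lowest, median and highest of the C57BL/6 arrays. Every Balb/c array was below every C57BL/6 array, which held for 1 member in this direction, 0 in the other, and 0.418% and 0.797% of all genes. The difference was -3.71 ± 0.44 (SE; adjusted p = 5.37e-05). Mrps33, a mitochondria-only protein of the small subunit, had 7.02, 5.88, 7.44, 7.24 and 6.81 in the Balb/c arrays, against 6.65, 10.01 and 10.72 in C57BL/6 (-3.02 ± 0.46, adjusted p = 2.73e-04). Here C57BL/6 200-1 was the only C57BL/6 array within the Balb/c range, and the next lowest was at 8.73.

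Mrpl22, whose bacterial relative L22 lines the tunnel through which the new peptide leaves, had 7.02, 6.88, 8.97, 5.58 and 6.23 in the Balb/c arrays, against 7.54, 9.95 and 10.37 in C57BL/6 (-2.99 ± 0.44, adjusted p = 2.58e-04). Balb/c 200-1 alone reached into the C57BL/6 range. Mrps17, whose bacterial relative S17 binds ribosomal RNA early in small-subunit assembly, had 5.39, 6.41, 9.05, 5.99 and 8.01, against 8.36, 9.28 and 10.66 (-2.65 ± 0.45, adjusted p = 6.31e-04). Mrpl32, which in yeast and mouse is cut by a protease of the inner membrane before it joins the ribosome, had 7.04, 7.20, 7.71, 5.88 and 7.72, against 7.53, 9.87 and 11.05 (-2.72 ± 0.50, adjusted p = 0.0011). For both genes Balb/c 200-1 and 400-2 were the highest of their strain, and for Mrpl32 the lowest C57BL/6 arrays were 400-1 and 200-1. In each of the 5 genes the C57BL/6 mean was above all Balb/c values.

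**Figure D3:**
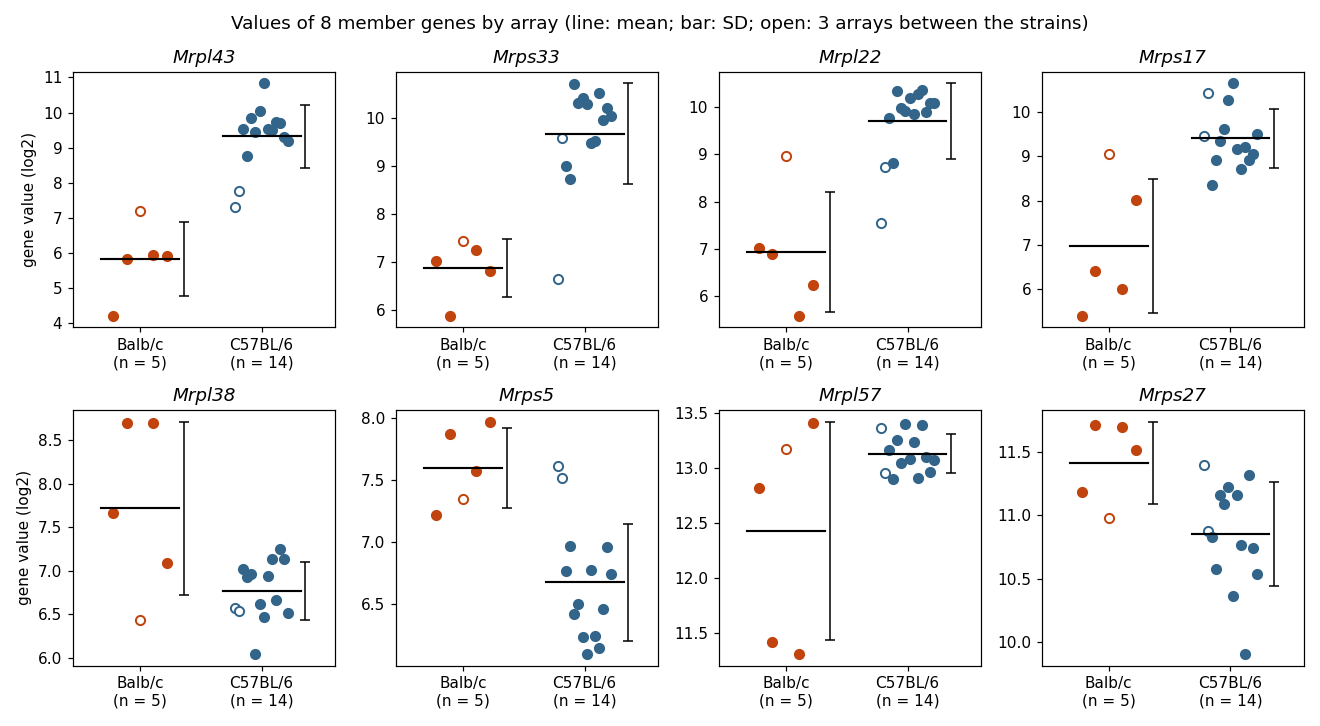
Gene values (log2) of 8 members on the 19 arrays, Balb/c left (n = 5) and C57BL/6 right (n = 14); lines are means, bars are SD, and open points mark Balb/c 200-1, C57BL/6 200-1 and C57BL/6 400-1. Mrpl43, Mrps33, Mrpl22 and Mrps17 were lower in Balb/c, Mrpl38 and Mrps5 higher, and Mrpl57 and Mrps27, the members with the highest values, did not pass the test.

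The 3 arrays between the strains were picked by their correlations over all genes, so leaving them out widens differences and is no independent check. Without those 3 arrays the 5 differences became larger, between -4.40 for Mrpl43 and -3.13 for Mrps17, and 12 members had all Balb/c arrays below all C57BL/6 arrays (6.41% of all genes). These were Mrpl11, Mrpl22, Mrpl28, Mrpl32, Mrpl36, Mrpl39, Mrpl41, Mrpl43, Mrps12, Mrps17, Mrps33 and Mrps36. In the other direction it held for Mrps5 alone (8.66% of all genes). With the number format as a block, 2 members stayed lower, Mrpl43 (-2.66, adjusted p = 0.019) and Mrps17 (-2.46, adjusted p = 0.044), against 1.28% of all genes, and over all settings tried their adjusted p ran between 3.00e-08 and 0.66 for Mrpl43 and between 2.75e-06 and 0.85 for Mrps17. The median over the members was then -0.50, with 59 of 76 below the median gene. The 9 arrays of the longer format include C57BL/6 200-1 and 400-1, which lay between the strains. As no Balb/c array had the shorter format, the block and the longer format alone gave the same median, -0.50. Among these 9 arrays alone, 0 members passed limma's adjusted test and 13 had an unadjusted p under 0.05, beside 13.0% of all genes. With the block 20 had an unadjusted p under 0.05, beside 21.5%. The part of the format, of the Actb signal and of the arrays that stand apart in the difference was not tested.

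After quantile normalization 36 members were lower and 3 higher, beside 13.8% and 15.2% of all genes, and after median centring and range scaling 37 and 2, beside 14.6% and 14.2%, with all 29 among them both times. With Balb/c 100-2 and 400-1 left out 8 were lower and 1 higher, beside 5.21% and 6.13% of all genes. Without all 5 arrays that stood apart 24 were lower and 3 higher, beside 10.4% and 15.8%. Without probe sets whose code marks several transcripts 15 of 62 members were lower and 5 higher, beside 9.69% and 22.0%, with a median of -0.49. By the methods' t-test with adjusted p-values 26 were lower and 5 higher, beside 10.6% and 20.7%.

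By subunit, the calls were spread over all classes, beside 11.4% of all genes lower and 21.1% higher. Of the large-subunit proteins with a bacterial counterpart, 11 of 29 were lower and 0 higher, with a median of -0.92. They included Mrpl28 (-2.19 ± 0.41), Mrpl13 (-1.88 ± 0.38) and Mrpl2 (-1.70 ± 0.50), the last of which has a bacterial relative close to the site of peptide bond formation. Of the large-subunit proteins without one, 8 of 20 were lower and 1 higher, also with a median of -0.92, and Mrpl41 (-2.05 ± 0.45) followed Mrpl43. Mrpl58, a peptidyl-tRNA hydrolase that can free stalled ribosomes, was among those lower. The probe sets of Mrpl28, Mrpl13 and Mrpl58 were not alike. For Mrpl28, the set whose code does not mark several transcripts was at -0.32 relative to the median probe set. The brightest sets of Mrpl13 and Mrpl58 were at -0.71 and -0.10, and none of these sets was called. In these genes the sets called lower all had a code that marks several transcripts.

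In the small subunit, 5 of 16 proteins with a bacterial counterpart were lower and 2 higher (median -0.74), and 4 of 10 mitochondria-only proteins were lower and 0 higher (median -0.51), beside 11.4% and 21.1% of all genes. When each gene was represented by its brightest probe set, 6 of the 10 were lower (median -1.18), and in the large subunit 3 of the 20 mitochondria-only proteins were (median -0.51), beside 14.1% of all genes. No difference between classes was tested. By name, 19 of 47 Mrpl genes were lower and 1 higher (median -0.92), and 10 of 29 Mrps genes were lower and 2 higher (median -0.76), again beside 11.4% and 21.1% of all genes.

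Names and positions do not always match. Mrps18a and Mrps30 are named for the small subunit, but their proteins sit in the large one. Mrps18a had 6.35 ± 0.86 in Balb/c and 6.30 ± 0.42 in C57BL/6, and Mrps30 had 8.03 ± 1.97 and 8.98 ± 0.89 (SD, n = 5 and 14), and neither passed the test. Mrps36, now known as a component of the 2-oxoglutarate dehydrogenase of the citric acid cycle, had 9.08, 7.83, 9.10, 9.86 and 9.77 in the Balb/c arrays, against 8.92, 11.00 and 11.75 in C57BL/6 (-1.84 ± 0.43, adjusted p = 0.0073). Its lowest C57BL/6 arrays were again 200-1 and 400-1.

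The members higher in Balb/c were Mrpl38, Mrps5 and Mrps10. Mrpl38, a large-subunit protein with a phosphatidylethanolamine-binding fold, had 7.67, 8.70, 6.43, 8.71 and 7.09 in the Balb/c arrays, against 6.04, 6.79 and 7.25 in C57BL/6 (0.73 ± 0.30, adjusted p = 0.018). Its difference rested on Balb/c 100-1, 100-2 and 400-1, and it was 0.10 (adjusted p = 0.49; 3.15e-04 to 0.89 over the settings tried) without Balb/c 100-2 and 400-1. Mrps5, whose bacterial relative S5 bears on the accuracy of decoding, had 7.22, 7.87, 7.35, 7.58 and 7.97, against 6.10, 6.63 and 7.62 (0.70 ± 0.25, adjusted p = 0.0081). Only C57BL/6 200-1 and 400-1, at 7.62 and 7.52, overlapped the Balb/c arrays. Its brightest probe set ran the other way, with 8.03 in Balb/c and 8.39 in C57BL/6 (-0.57 ± 0.31, adjusted p = 0.39). Mrps10 averaged 6.98 ± 0.45 in Balb/c and 6.32 ± 0.25 in C57BL/6 (SD, n = 5 and 14; 0.45 ± 0.20, adjusted p = 0.017), and was not called after quantile normalization (adjusted p = 0.075) or range scaling (0.078), its adjusted p lying between 0.0068 and 0.67 over the settings tried.

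Mrpl57 and Mrps27, the members with the highest values, did not pass the test. Mrpl57, a small protein of the large subunit, had 12.82, 11.42, 13.18, 11.31 and 13.41 in the Balb/c arrays, against 12.90, 13.09 and 13.40 in C57BL/6 (-0.92 ± 0.27, adjusted p = 0.0503). The low arrays were Balb/c 100-2 and 400-1, and without them the adjusted p was 0.99 (0.0010 to 0.996 over the settings tried). Its brighter probe set was at 15.68 in Balb/c and 15.64 in C57BL/6, near the highest value in the table of 15.998, while the other averaged 9.18 in Balb/c and 10.63 in C57BL/6 (-1.66 ± 0.48, adjusted p = 0.026). Mrps27, a small-subunit protein of the pentatricopeptide repeat type that binds RNA, averaged 11.41 ± 0.32 in Balb/c and 10.85 ± 0.41 in C57BL/6 (adjusted p = 0.066). Mrps18b averaged 9.86 ± 1.31 and 9.70 ± 0.83, Mrps15 6.43 ± 0.29 and 6.21 ± 0.31, and Mrpl33 8.44 ± 0.43 and 8.18 ± 0.42 in Balb/c and C57BL/6, the 3 differences nearest to the median gene. For Mrps15 the median hid unlike probe sets. They were at -1.78 (the brightest), -1.76 and 0.73 relative to the median probe set, and each was called.

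Scatter between arrays was wider in Balb/c. The SD of a member had a median of 0.70 over the 5 Balb/c arrays and 0.54 over the 14 C57BL/6 arrays, beside 0.62 and 0.55 for all genes, and it was above 1 for 16 members in Balb/c and 3 in C57BL/6. The widest were Mrps30, with 10.001, 6.28, 9.19, 5.58 and 9.11 on the Balb/c arrays, Mrpl20, with 11.43, 6.95, 7.60, 7.62 and 7.56, and Mrps22, with 5.46, 8.66, 7.32, 6.24 and 3.94. For Mrps30 the low arrays were 100-2 and 400-1, while Mrpl20 was high on 100-1 alone. When each strain was given its own variance in limma, 18 members were lower and 3 higher, beside 8.72% and 15.0% of all genes.

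The median difference was -1.40 for members with a mean above 8, -0.76 between 7 and 8, and -0.30 at 7 or below, beside -0.40, -0.03 and 0.11 for all genes of those ranges. Of the 25 members above 8, 15 were lower in Balb/c and 0 higher, beside 26.0% and 12.7% of all genes in that range. Between 7 and 8, 7 of 20 members were lower and 1 higher, beside 13.6% and 22.3% of all genes. At 7 or below, 7 of 31 (22.6%) were lower and 2 higher, beside 5.2% and 23.5%. In each range the share of members called lower was above that of all genes.

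Probe sets of a single gene could disagree, and the median then hid a difference. Mrps25, a mitochondria-only protein of the small subunit, had 3 probe sets. The brightest averaged 6.21 in Balb/c and 9.38 in C57BL/6 (-3.38 ± 0.34, adjusted p = 1.7e-05), and all 5 Balb/c values, between 5.04 and 7.33, were below all 14 C57BL/6 values, between 8.39 and 10.76. The share of all probe sets without such overlap was not counted, and this gene was picked because its sets differ. A dimmer set averaged 7.54 in Balb/c and 5.58 in C57BL/6 (1.75 ± 0.44, adjusted p = 0.0024), and the gene value was not called. Mrpl3, whose bacterial relative L3 is among the first proteins to bind the large ribosomal RNA, also had unlike sets. Its brightest set was 6.78, 6.85, 11.72, 7.52 and 6.42 on the Balb/c arrays, against 11.29 on average in C57BL/6 (-3.64 ± 0.60, adjusted p = 3.97e-04), where only Balb/c 200-1 reached the C57BL/6 values.

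Mrps6 had a brighter set at 6.22, 3.28, 9.96, 5.54 and 9.23 in Balb/c, against 10.12 on average in C57BL/6 (-3.49 ± 0.65, adjusted p = 0.0011), and a dimmer one at 8.62 and 7.87 on average (0.54 ± 0.31, adjusted p = 0.060). By its design code the brighter set may recognise more than 1 transcript, and without it the gene was not lower in Balb/c (0.50). Of all 156 probe sets, 51 were lower and 16 higher in Balb/c, beside 12.9% and 20.4% of all probe sets. Those with a mean above 8 gave 20 lower and 1 higher of 47, and those at 8 or below 31 lower and 15 higher of 109. Calls over all genes also moved with level. Above 8, 26.0% of all genes were lower and 12.7% higher, between 7 and 8 13.6% and 22.3%, and at 7 or below 5.2% and 23.5%. Shares of all probe sets by level were not counted. With the highest-mean probe set for each gene, 25 members were lower and 4 higher (14.1% and 20.6% of all genes), and 18 of the 25 were among the 29.

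**Figure D4:**
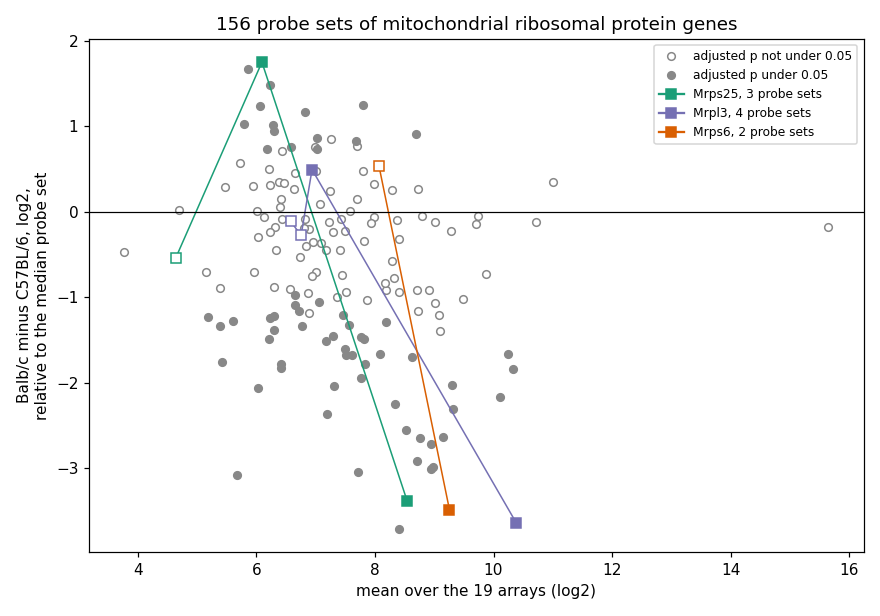
Strain difference of the 156 probe sets (Balb/c minus C57BL/6, log2, relative to the median probe set) against their mean over the 19 arrays (log2); filled marks had an adjusted p under 0.05 and lines join the sets of Mrps25, Mrpl3 and Mrps6. In these 3 genes the brightest set was the one that was lower in Balb/c, with differences of -3.38, -3.64 and -3.49.

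The promoters of the genes with the 4 largest differences are shown with those of Mrpl57 and Mrps5 for contrast. A promoter here is 300 bases, 250 before and 50 after the annotated start (RefSeq, GRCm38.p6), and 67 of the 76 members matched one or more. Capitals mark TGCGCA, the core of the site of the regulator NRF1, CCGGAAG, a site of the ETS factor GABP, and AAGATGG, a site of YY1, each on either strand, and the letters run along the strand of the gene. They lie at chr19:45006393-45006692, reverse strand, chr6:39810887-39811186, reverse strand, chr11:58171414-58171713, forward strand, chr13:14612988-14613287, reverse strand, chr14:57825989-57826288, forward strand and chr2:127587176-127587475, forward strand.
Mrpl43: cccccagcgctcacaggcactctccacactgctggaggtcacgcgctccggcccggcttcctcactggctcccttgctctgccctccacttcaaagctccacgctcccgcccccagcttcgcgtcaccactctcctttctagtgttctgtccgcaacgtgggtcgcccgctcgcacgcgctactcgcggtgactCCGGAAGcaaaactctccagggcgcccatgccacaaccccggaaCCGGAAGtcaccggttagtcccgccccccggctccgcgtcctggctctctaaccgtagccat
Mrps33: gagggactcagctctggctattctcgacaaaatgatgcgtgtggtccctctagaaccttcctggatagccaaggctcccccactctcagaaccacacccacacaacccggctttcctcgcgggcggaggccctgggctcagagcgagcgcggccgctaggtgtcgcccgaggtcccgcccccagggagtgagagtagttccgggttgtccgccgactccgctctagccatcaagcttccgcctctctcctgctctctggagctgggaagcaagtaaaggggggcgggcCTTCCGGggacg
Mrpl22: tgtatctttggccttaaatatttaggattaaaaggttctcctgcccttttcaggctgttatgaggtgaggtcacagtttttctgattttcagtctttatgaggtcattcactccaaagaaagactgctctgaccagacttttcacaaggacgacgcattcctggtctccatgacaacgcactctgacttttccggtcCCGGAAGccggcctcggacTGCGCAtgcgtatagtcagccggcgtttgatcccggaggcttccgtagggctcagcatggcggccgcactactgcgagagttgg
Mrpl32: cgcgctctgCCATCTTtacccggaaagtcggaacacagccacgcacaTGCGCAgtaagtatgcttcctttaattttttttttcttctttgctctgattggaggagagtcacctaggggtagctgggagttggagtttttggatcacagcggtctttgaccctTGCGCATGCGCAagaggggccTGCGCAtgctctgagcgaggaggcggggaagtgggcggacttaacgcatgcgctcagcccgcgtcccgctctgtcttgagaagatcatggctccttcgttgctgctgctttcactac
Mrpl57: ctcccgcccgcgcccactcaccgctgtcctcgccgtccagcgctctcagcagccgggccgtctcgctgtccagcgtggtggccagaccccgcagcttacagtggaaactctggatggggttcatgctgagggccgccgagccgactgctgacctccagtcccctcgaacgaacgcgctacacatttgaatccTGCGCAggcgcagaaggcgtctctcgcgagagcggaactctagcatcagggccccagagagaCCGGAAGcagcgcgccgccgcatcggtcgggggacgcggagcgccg
Mrps5: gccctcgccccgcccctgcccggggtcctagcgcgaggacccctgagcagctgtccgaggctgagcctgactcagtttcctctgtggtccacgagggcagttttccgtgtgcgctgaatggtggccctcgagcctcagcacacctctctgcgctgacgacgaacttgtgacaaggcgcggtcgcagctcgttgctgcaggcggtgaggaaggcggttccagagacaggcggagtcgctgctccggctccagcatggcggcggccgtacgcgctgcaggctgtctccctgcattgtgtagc

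In Mrpl43 the marked letters are 2 GABP matches, in Mrps33 1 GABP match after the start, in Mrpl22 and Mrpl57 1 NRF1 and 1 GABP match each, and in Mrpl32 4 NRF1 matches and 1 YY1 match. Mrps5 held none of the 3. Over the 73 promoters of members, 30.1% held TGCGCA, 34.2% CCGGAAG and 17.8% AAGATGG, beside 7.76%, 8.86% and 6.34% of all 32851 promoters. The GC box GGGCGG was in 53.4% and CCAAT in 39.7%, beside 35.7% and 37.4%. Of the promoters of members lower in Balb/c and of those not called, TGCGCA was in 30.8% of 26 promoters and 31.1% of 45, CCGGAAG in 34.6% and 35.6%, AAGATGG in 19.2% and 17.8%, and CCAAT in 57.7% and 28.9%. These are matches of letters, given as a description.

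Other genes that serve the same ribosome were read from lists, whose counts stand beside 11.4% of all genes lower and 21.1% higher. With the number format as a block, Grsf1 (adjusted p = 0.0498) was the only gene of the lists in this and the next 2 paragraphs that was called, and Tfb2m (0.24), Dap3 (0.19) and Mtif2 (0.054), for example, were not. Over the settings tried the adjusted p of Grsf1 lay between 2.25e-06 and 0.85. Of the ribosomal proteins that carry other names, Dap3, Chchd1 and Ptcd3 were lower and 1 of the 4 measured was not called. Dap3, a GTP-binding protein of the small subunit, had 6.68, 8.16, 10.43, 7.88 and 6.71 in Balb/c, against 7.98, 10.10 and 10.69 in C57BL/6 (-2.14 ± 0.45, adjusted p = 0.0035). Chchd1 had 8.33, 11.09, 11.55, 7.71 and 10.93, against 11.11, 11.47 and 11.73 (-1.74 ± 0.42, adjusted p = 0.0088), so its difference lay mainly in Balb/c 100-1 and 400-1. Of 13 translation factors 3 were lower and 1 higher (median -0.46). Mtif2, the initiation factor that brings in the first tRNA, averaged 5.69 ± 0.88 in Balb/c and 8.16 ± 1.003 in C57BL/6 (-2.69 ± 0.46, adjusted p = 7.31e-04), and the release factor Mtrf1l and the RNA-binding Slirp were also lower (-1.45 ± 0.27 and -2.31 ± 0.50).

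Genes for assembly and supply gave mixed results. Of 27 assembly factors 5 were lower (18.5%) and 8 higher (29.6%), with a median of 0.22. The 8 higher ranged between 0.40 for Mrm3 and 1.14 for Mpv17l2. Grsf1, Dhx30 and Fastkd2, proteins of the mitochondrial RNA granules, were lower in Balb/c, with differences of -2.54 ± 0.37, -2.01 ± 0.34 and -1.84 ± 0.31. Of 16 mitochondrial aminoacyl-tRNA synthetases 1 was lower, Sars2 (-1.54 ± 0.46), and 2 were higher, Aars2 (1.16 ± 0.30) and Wars2 (0.79 ± 0.27), with a median of -0.08. Of 10 genes of mitochondrial transcription and DNA maintenance only the transcription factor Tfb2m was called, lower in Balb/c (-2.15 ± 0.44). Tefm averaged 6.22 ± 0.39 in Balb/c and 5.56 ± 0.56 in C57BL/6, and Ssbp1 7.68 ± 0.43 and 7.01 ± 0.56, neither passing the test.

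Of 10 nuclear regulators of mitochondrial genes 1 was lower, the coactivator Ppargc1a (-1.81 ± 0.44), and 3 were higher, Nrf1 (0.76 ± 0.25), Gabpa (1.13 ± 0.35) and the coactivator Pprc1 (1.502 ± 0.43). Nrf1 was 8.71, 7.83, 7.03, 7.61 and 6.73 on the Balb/c arrays, against 6.19, 6.58 and 7.29 in C57BL/6. Gabpa was 8.24, 7.04, 7.41, 7.04 and 8.02, against 4.59, 6.30 and 7.12. The difference of Gabpa and of Nrf1 was not called for their probe set with the highest mean (0.30, adjusted p = 0.53, and 0.36, adjusted p = 0.28; over the settings tried 0.0027 to 0.71 for Gabpa and 3.32e-04 to 0.83 for Nrf1).

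Beside the cytosolic ribosome and complex I, the mitochondrial ribosomal proteins had the median nearest to 0. Of 46 cytosolic ribosomal protein genes 31 were lower and 2 higher (median -1.77), and of 35 subunits of complex I of the respiratory chain 26 were lower and 1 higher (median -2.48), beside 11.4% and 21.1% of all genes. With the number format as a block 4 of the 46 (median -1.10) and 7 of the 35 (median -1.43) were lower and 0 higher, beside 1.28% and 0.649% of all genes. The mean over the cytosolic ribosomal proteins was 7.67 ± 0.71 in Balb/c and 9.17 ± 0.41 in C57BL/6, and over complex I 7.43 ± 0.87 and 9.35 ± 0.50 (SD, n = 5 and 14). The groups share their arrays, and no difference between them was tested.

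Markers of other cell types were called in both directions. Of 8 astrocyte markers 2 were lower and 0 higher in Balb/c, of 7 oligodendrocyte markers 0 and 3, of 8 microglia markers 0 and 2, of 8 interneuron markers 2 and 1, and of 7 pyramidal markers 3 and 1, beside 11.4% and 21.1% of all genes. The mean over a list ran, in Balb/c and then C57BL/6 arrays, between 6.15 and 7.87 and between 6.53 and 7.76 for astrocytes, 6.46 to 7.16 and 6.40 to 6.89 for oligodendrocytes, 7.36 to 7.69 and 6.82 to 7.54 for microglia, 7.42 to 7.88 and 7.52 to 8.51 for interneurons, and 7.02 to 8.35 and 7.67 to 8.87 for pyramidal neurons. Their part in the strain difference was not tested.

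The median over the members was below the median gene within each pool size. In pools of 100 dendrites (2 Balb/c and 4 C57BL/6 arrays) 13 members were lower and 1 higher, with a median of -0.87 (5.65% and 5.82% of all genes). In pools of 400 (2 and 5 arrays) 14 were lower and 0 higher, with a median of -1.04 (7.34% and 9.66% of all genes). In pools of 200, with Balb/c 200-1 against 5 C57BL/6 arrays, 0 members passed limma's adjusted test, 5 had an unadjusted p under 0.05 (7.74% of all genes), and the median was -0.30.

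Pool size itself moved no member past the test. The slope per doubling of the dendrites, with strain in the model, passed limma's adjusted test for 0 of the 76 genes and 0 of all genes, and 4 members had an unadjusted p under 0.05, 2 in each direction, beside 4.67% of all genes. The median slope over the members was 0.03 relative to the median gene. Mrpl55 averaged 8.13 ± 0.68, 8.21 ± 0.54 and 9.02 ± 0.39 in C57BL/6 pools of 100, 200 and 400 (SD, n = 4, 5 and 5), with a slope of 0.45 ± 0.17 (SE; adjusted p = 0.96). Mrps6 averaged 8.81, 8.77 and 9.36 and had a slope of 0.43 ± 0.17, and Mrpl2, with 7.84, 9.56 and 9.40, had 0.48 ± 0.25.

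In the other direction Mrps31 averaged 6.94 ± 0.30, 6.85 ± 0.25 and 6.51 ± 0.36 in the C57BL/6 pools, with a slope of -0.39 ± 0.15 (adjusted p = 0.96). The slopes of Mrpl12, whose bacterial relative forms the stalk that recruits translation factors, and of Mrps28 were -0.40 ± 0.24 and -0.30 ± 0.25, and that of Mrpl12 leans on 11.36 in C57BL/6 100-2, where the other 13 C57BL/6 arrays were between 7.66 and 8.57. The slope differed between strains for 0 members by limma's adjusted test, with 7 at an unadjusted p under 0.05 beside 3.79% of all genes.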

How the data were processed

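Dendrites of hippocampal neurons from 2 mouse strains were measured on 19 expression arrays. The authors deposited log2 values of 45101 probe sets, made with RMA (version 2.0) with the probes of a set summarised by their upper decile. Their methods name median centring and range scaling, which the deposited columns do not show (array medians differ), so the values were used as deposited. Of the probe sets, 64 were controls, 34945 carried 1 gene symbol in the platform's annotation, 932 several and 9160 none; 34741 of those with 1 symbol (99.42%) matched a RefSeq gene by its identifier and 0 symbols changed. No detection calls or depth come with such values, so the number of arrays limits the precision. The highest correlation between any 2 arrays was 0.945, so no array was taken as a repeat of another; nothing says whether replicates came from separate litters, and p-values measure the spread between these pools.

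The strain fit used lmFit with eBayes of limma 3.58.1 in R 4.3.3 on 18193 genes, strain without covariates, all 19 arrays, Benjamini-Hochberg over all genes; the methods' t-test was an alternative. Pool size entered as log2 of dendrites per pool. The members and lists were chosen with earlier results of these data known. Genes were named by rule: among called members the 10 largest negative and up to 6 largest positive differences, the 6 highest means, the 3 smallest differences, the 3 largest Balb/c SDs, the 3 largest slopes each way, the 3 with the most unlike probe sets, 3 whose name and subunit disagree, and up to 3 genes of each list. Outside this rule, Mrpl11, Mrpl36, Mrpl39 and Mrps12 are named in the list of 12 without overlap, Mrpl15 for its number of probe sets, and Mrpl58, Mrps34, Ppargc1a, Mrm3, Mpv17l2 and the leading markers after their values were seen. The fits were tested on simulated data with known changes. Alternatives were other scalings, probe set choices, array subsets, blocks and leaving out each array. Figures used matplotlib 3.10.9.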

Additional observations from a re-analysis of the deposited data

Results flagged for a closer look

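Of 196 sets of 4 or 5 arrays tested over the named genes (each C57BL/6 pool size and the 5 Balb/c arrays), 15 held an array farther from the others than Dixon's 95% limit allows. On the Balb/c arrays these were Mrpl13 at 6.31 and Mrpl20 at 11.43 in 100-1, with the nearest other arrays at 4.76 and 7.62, and Mrpl28 at 10.001 and the transcription factor Tfb2m at 8.11 in 200-1, with the nearest at 7.62 and 6.82. Among C57BL/6 pools of 400, 400-1 was low for Mrpl22 (8.74, nearest 9.90), Mrpl41 (7.43, nearest 9.01), Mrpl43 (7.77, nearest 9.18), Mrps36 (8.95, nearest 10.89), Mtif2 (6.10, nearest 8.45) and Sars2 (5.19, nearest 8.01). Among pools of 200, 200-1 was low for Mrpl22 (7.54, nearest 9.86), Mrps33 (6.65, nearest 9.47) and Fastkd2 (4.87, nearest 6.41). Those 9 values belong to genes that were lower in Balb/c and to arrays that lay between the strains. Among pools of 100, Mrpl12 was high in 100-2 (11.36, nearest 8.31) and Mrpl38 low in 100-4 (6.04, nearest 6.93).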

How the results depend on the processing

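The main counts were 29 members lower and 3 higher in Balb/c with a median of -0.90 relative to the median gene. The count of lower members was 36 after quantile normalization and 37 after range scaling, where the split of all genes moved to 13.8% lower and 15.2% higher, and 14.6% and 14.2%. Fewer were lower with the number format as a block (2 lower, 0 higher, median -0.50), among arrays of the longer format (0, 0, -0.50), in pools of 100 (13, 1), of 200 (0, 0, -0.30) and of 400 (14, 0), with a variance per strain (18 lower), without probe sets whose code marks several transcripts (15 lower, 5 higher of 62 members, -0.49), and without Balb/c 100-2 and 400-1 (8, 1, -0.67; 5.21% and 6.13% of all genes). Subsets hold fewer arrays; the cause of the other changes was not tested. Without the 3 arrays between the strains 6 were higher, and by the methods' t-test 5 were higher and 26 lower after Benjamini-Hochberg. Leaving out each array in turn gave 19 to 33 lower, 2 to 5 higher and medians between -0.96 and -0.72. Without Balb/c 100-2 alone 19 were lower, and without C57BL/6 200-1 alone 5 were higher. For these single omissions the share of all genes called was not counted. Without the 5 arrays that stood apart, added after seeing the data, 24 were lower and 3 higher, and without the 3 between the strains and Balb/c 400-2, also added then, 29 were lower and 6 higher.

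Replicate numbers do not pair the samples, since the deviations of same-numbered arrays correlated at 0.071, 0.006, -0.189, -0.037 and -0.019. With pool size and replicate number as a replicate block, 0 members passed limma's adjusted test, 19 had an unadjusted p under 0.05 (18.3% of all genes), and the median was -0.64. Members above the olfactory 95th percentile on most arrays numbered 3, and 9 for the probe set with the highest mean (added after seeing the data). Of genes called in the main or the other setting, those that turned direction in pools of 200 were Mrpl2 (0.25), Mrpl28 (0.14), Mrps28 (0.38), Mrps6 (0.51), Dap3 (0.92), Mrpl38 (-0.37), Aars2 (-0.29), Wars2 (-0.16) and Pprc1 (-0.62), and Mrps10 did in pools of 400 (-0.043). For the probe set with the highest mean the direction turned for Mrps5 (-0.54), Mrps15 (-1.75), Mrps25 (-3.35), Mrps31 (-1.18) and Ssbp1 (-1.28), and for Mrps6 without probe sets of several transcripts (0.50). No slope passed the adjusted test under any setting, and the median slope stayed between 0.004 and 0.06 as each array was left out. Low signal limits the members near background.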

Other observations

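The 4 probe sets left out because they carry several symbols gave these values. The 2 sets shared by Mrpl30 and Gm6238 averaged 4.81 ± 1.26 and 4.15 ± 0.71 in Balb/c and 7.99 ± 1.20 and 5.73 ± 1.14 in C57BL/6 (SD, n = 5 and 14). The set shared by Mrpl53 and Ccdc142 was 6.61, 6.82, 6.47, 6.58 and 6.64 on the Balb/c arrays, against 6.81, 8.31 and 9.43 as the lowest, median and highest in C57BL/6. The set shared by Mrps34 and Nme3 averaged 6.27 ± 0.74 in Balb/c and 5.47 ± 0.57 in C57BL/6, while the 1 probe set that names Mrps34 alone averaged 7.40 in Balb/c and 8.48 in C57BL/6, in the other direction.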
